A study of Mus musculus with 8 samples.

Results

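Loss of the histone demethylase Jmjd1b, with Jmjd1a left intact, was described in mouse embryonic stem cells from 4 of the 8 arrays of the series: 2 of Jmjd1b-KO cells and 2 of wild-type (WT) cells. The rule took the deposited log2 values of every probe set whose values spanned at least 0.01 over the 8 arrays, which left 11502 of 45101 probe sets and 7181 of 18194 genes. The other 4 arrays, 2 of Jmjd1a-KO and 2 of double-KO cells, served to estimate the spread and gave a second pair of groups that differ in Jmjd1b. The WT cells are labelled Jmjd1a+/+; Jmjd1b+/+, the Jmjd1b-KO cells Jmjd1a+/+; Jmjd1bdelta/delta, the Jmjd1a-KO cells Jmjd1adelta/delta; Jmjd1b+/+ and the double-KO cells Jmjd1adelta/delta; Jmjd1bdelta/delta. All cells grew in medium with leukemia-inhibiting factor, a cytokine that keeps mouse embryonic stem cells undifferentiated. The protocol shared by all samples names OHT at 800 nM, a tamoxifen derivative that switches on an inducible Cre, as the agent that deletes the conditional Jmjd1b allele, and which samples received it is not given apart from that. By the labels, WT and Jmjd1b-KO cells derive from mice, whereas the design text describes Jmjd1b-deficient lines D23.6 and D4.1, each established from targeted YY90 cells after Cre from an adenovirus. Each such line is 1 clone, which line each array holds is not stated there, and a change that came with the line cannot be told apart from one that came with the deletion. The titles call the arrays of a group biological replicates, and nothing says that they came from separate mice, so the p-values measure only the spread between these arrays.

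Jmjd1b and Jmjd1a, whose genes are now called Kdm3b and Kdm3a, are related enzymes that remove methyl groups from lysine 9 of histone H3 (H3K9), a mark that the methyltransferase pair G9a and GLP (genes Ehmt2 and Ehmt1) lays down on silent chromatin. In embryonic stem cells H3K9 methylation is known for holding down germline genes, many of which are also silenced by DNA methylation at their promoters. Removal of the mark is in turn known to help genes stay active.

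The deleted gene was checked first. Kdm3b stood at 9.91 and 9.96 in WT and at 7.07 and 7.10 in Jmjd1b-KO, so both deleted arrays lay far below both WT arrays. The fall was 2.85 ± 0.19 on the log2 scale (SE, 2 arrays per group, adjusted p = 0.00273), and a second Kdm3b probe set did not vary over the arrays. The position of these probe sets relative to the deleted part of the gene was not examined. Kdm3a, which encodes the related demethylase, had a difference of 0.03 ± 0.10 (adjusted p = 0.84), with the arrays of the 2 groups overlapping, at 12.83 and 12.73 in WT and 12.80 and 12.83 in Jmjd1b-KO. All 10 embryonic stem cell markers examined were measured, with a mean level of 11.56 and 11.57 in WT and 11.71 and 11.67 in Jmjd1b-KO. Of them Sall4 fell and 0 rose, while Pou5f1, Sox2 and Nanog had differences of 0.18, 0.12 and 0.43 with adjusted p of 0.445, 0.469 and 0.177. The 4 blood cell markers were all flat, that is, below the span of 0.01. Flatness alone cannot tell a gene that was not expressed from one that did not vary, here or for the markers below. Dnmt1 and Ehmt1, for instance, were flat too.

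The lower quartiles of the 8 arrays lay at 6.341 to 6.346 on the log2 scale, and the control probe sets for the 3′ end of Actb exceeded those for its 5′ end, a measure of RNA integrity, by 0.50 to 0.61. Replicates lay closer together in the groups compared than in the others: the SD of the replicate difference was 0.16 in WT and 0.12 in Jmjd1b-KO, against 0.35 in Jmjd1a-KO and 0.30 in double-KO. Since the test used 1 error per probe set for all groups, an SE below can be wider than the arrays compared would give by themselves. Jmjd1a-KO replicate 2 and double-KO replicate 2 stood apart in the Y-linked gene Eif2s3y, at 3.19 and 3.73, against 7.62 to 12.17 on the other 6 arrays. Both Jmjd1b-KO arrays lay above both WT arrays in the 3 measured Y-linked genes of the list, Eif2s3y (9.14 and 11.66 in Jmjd1b-KO), Uty (7.94 and 7.90 against 9.10 and 8.94) and Kdm5d (5.73 and 6.08 against 6.76 and 6.85). They did not pass by limma (adjusted p = 0.487 to 0.74), with an error that includes the 2 arrays that stood apart, and 2 of the 3 passed when only the 4 compared arrays were fitted. The number of arrays limits the precision, and signal over background was not examined.

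Many genes differed. At an adjusted p under 0.05 by limma, 1703 of 7181 genes passed (23.7%), of which 974 were higher (13.6%) and 729 lower (10.2%) in Jmjd1b-KO. The split depended on the scaling: with each array centred, 833 genes were higher and 850 lower, so the excess of rises is not settled. A log2 change of at least 1 was reached by 259 genes (3.61%), of which 120 were higher (1.67%) and 139 lower (1.94%). At a log2 change of at least 2 there were 33 lower genes and 9 higher ones. In 63 of the lower genes the Jmjd1b-KO mean lay below the lower quartile of the arrays, as did the WT mean in 25 of the higher ones, so the sizes of those changes are uncertain. On the probe set level 2744 of 11502 passed (23.9%). Leaving out one of the compared arrays lowered this count, to 146 (WT replicate 1), 646 (WT replicate 2), 235 (Jmjd1b-KO replicate 1) or 104 (Jmjd1b-KO replicate 2), where the lone array left in a group was assumed to vary like the others. It was 5071 when only the 4 compared arrays were fitted. Leaving out the 2 arrays that stood apart in Eif2s3y, a setting chosen after the data were seen, gave this same fit. The lone array then left in each of the other groups adds no spread, so it is not a separate check. Of the 1703 genes, 58 kept their call when each of the 4 compared arrays was left out in turn.

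**Figure D1:**
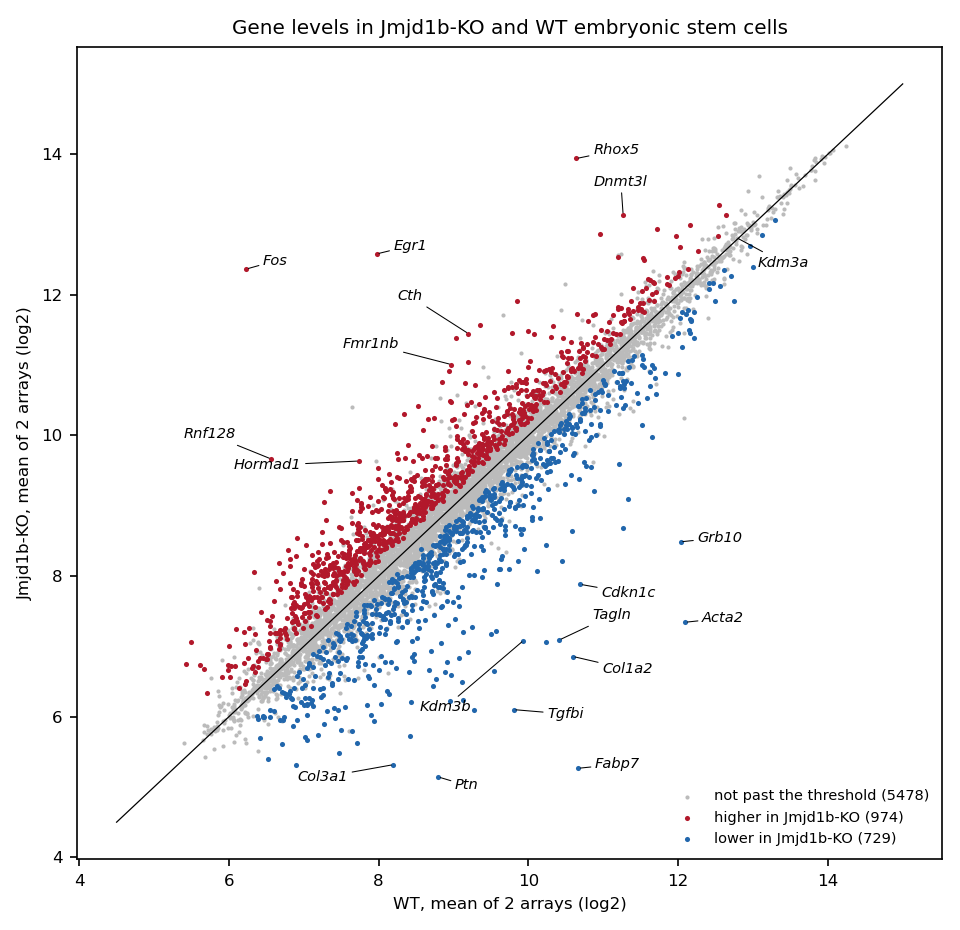
Mean level of each of 7181 genes in WT (horizontal axis, log2) and in Jmjd1b-KO (vertical axis, log2), 2 arrays per group, with the diagonal marking equal levels. The 974 higher genes are red, the 729 lower ones blue and the rest grey; Fos and Egr1 lie far above the diagonal, and Fabp7 and Acta2 far below it, while Kdm3a lies on it.

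The largest rise was that of Fos, a subunit of the AP-1 transcription factor that cells switch on within minutes of a growth signal. Fos stood at 6.13 and 6.34 in WT and at 12.14 and 12.60 in Jmjd1b-KO. The rise was 6.13 ± 0.25 (adjusted p = 0.00145), and its size is uncertain because the WT mean lay below the lower quartile. Egr1, a zinc finger factor of the same early response, was next, at 8.05 and 7.90 in WT against 12.28 and 12.88 in Jmjd1b-KO (4.61 ± 0.57, adjusted p = 0.00762). Dusp1, a phosphatase that switches off MAP kinases, went from 9.02 and 9.06 to 11.41 and 11.37 (2.35 ± 0.44). The arrays of the 2 groups do not overlap in these genes because the rule that picked them required it, and 78.3% of all genes had no overlap.

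Other members of the early response did not follow as a block. Of 33 immediate early genes on the array 25 were measured. Of these 5 rose (20%, against 13.6% of all genes) and 3 fell (12%, against 10.2%). Their median difference was 0.13, against 0.02 over all 7181 genes (6 rose and 5 fell with quantile normalization). Jun, another AP-1 subunit, rose by 1.50 ± 0.31, from 7.19 and 7.41 to 8.71 and 8.89, and Zfp36, which targets short-lived mRNAs for decay, rose by 0.57 ± 0.06. Its relative Zfp36l1 fell by 1.30 ± 0.25, and Ier5 fell by 0.74 ± 0.14. Dusp4 and Dusp6, phosphatases that damp ERK signalling, had differences of -1.51 and -1.24 that did not pass (adjusted p = 0.0521 and 0.0561). Fosb, Fosl1, Fosl2, Junb, Egr2, Egr3 and Nr4a1 were flat. Without each compared array in turn, 1 to 3 members stayed higher and 0 stayed lower, and Fos was higher in every case.

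Germline genes made up the list with the most members higher. Of 49 on the array 35 were measured, 19 of them rose (54.3%, against 13.6% of all genes) and 1 fell, with a median difference of 0.83. Hormad1, a protein of the meiotic chromosome axis, stood at 7.70 and 7.77 in WT and at 9.53 and 9.74 in Jmjd1b-KO (1.90 ± 0.14, adjusted p = 0.00328). Dnmt3l, a partner of the de novo DNA methyltransferases that germ cells and embryonic stem cells share, was already high at 11.11 and 11.42 and reached 13.12 and 13.16 (1.87 ± 0.30). Meioc, which keeps germ cells in meiosis, went from 7.26 and 7.45 to 9.11 and 9.31 (1.86 ± 0.21). Klhl10, needed for spermatid maturation, rose by 1.43 ± 0.12. Stk31 rose by 1.38 ± 0.10, from 6.86 and 6.93 to 8.39 and 8.17. Sycp3, a structural protein of the synaptonemal complex, rose by 1.37 ± 0.15, from 7.59 and 7.83 to 8.92 and 9.23. Apart from Dnmt3l these genes stood between 6.72 and 7.83 in WT, not far above the lower quartile of the arrays. Dnd1 fell, by 0.43. Fewer members were higher when a compared array was left out: 6 (WT replicate 1), 12 (WT replicate 2), 9 (Jmjd1b-KO replicate 1) and 6 (Jmjd1b-KO replicate 2). Dazl, Hormad1, Stk31, Tdrd12, Klhl10 and Gtsf1 passed in all 4 cases. Of the 35, 6 lie on chromosomes 1, 11 or 19, which shifted as a whole as described below, and the count of 19 stayed at 19 after each chromosome was centred.

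Germline genes that are held down in embryonic stem cells often carry an E-box with the core CACGTG near their start, a site bound by bHLH factors such as the repressor complex subunits Mga and Max. This motif reads the same on both strands, and it was searched after the values were seen, in the 250 bases before the start of each gene in RefSeq's annotation of GRCm38.p6. It was found in 9 of the 18 higher germline genes with a promoter in the table (50.0%). By comparison it was in 3 of 12 measured germline genes that were not higher (25%), 3 of 11 flat ones (27.3%), 10.7% of all measured genes, 10.6% of all higher genes and 6.86% of all 27025 genes with a promoter. A match describes the letters only, and no binding was measured here. The stretches around the motif are shown for 5 of the higher genes, 5′ to 3′ on the gene's strand, with the E-box in capitals. Hormad1 and Sycp3 each hold it in 2 copies.
Hormad1, chr3:95559590-95559676, plus strand: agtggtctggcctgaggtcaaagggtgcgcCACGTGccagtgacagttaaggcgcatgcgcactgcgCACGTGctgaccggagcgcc
Sycp3, chr10:88459493-88459579, plus strand: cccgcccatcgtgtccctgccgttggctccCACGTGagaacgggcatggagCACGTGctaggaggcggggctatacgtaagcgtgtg
Stk31, chr6:49395454-49395519, plus strand: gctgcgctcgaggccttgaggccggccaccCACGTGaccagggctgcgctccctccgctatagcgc
Dnmt3l, chr10:78049768-78049833, plus strand: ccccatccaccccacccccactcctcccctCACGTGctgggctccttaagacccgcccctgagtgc
Ddx4, chr13:112652311-112652369, minus strand: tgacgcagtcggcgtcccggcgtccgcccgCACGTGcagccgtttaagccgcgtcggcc

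Rhox5, an X-linked homeobox gene of the reproductive tract and placenta, rose from 10.61 and 10.68 to 14.11 and 13.76 (3.30 ± 0.16, adjusted p = 0.00181). Of 5 measured genes of the Rhox and Xlr list, Rhox5 and Mageb16 (0.30 ± 0.07) rose (40.0%, against 13.6% of all genes) and 0 fell. Mageb16 lost its call with quantile normalization. The X chromosome as a whole had a median difference of 0.01, against 0.02 over all genes, but held a larger share of falls. Of its 264 measured genes 32 rose (12.1%, against 13.6% of all genes) and 39 fell (14.8%, against 10.2%). Among the X-linked genes with the largest changes, Rnf128, an E3 ubiquitin ligase, rose from 6.44 and 6.69 to 9.68 and 9.65 (3.10 ± 0.51). Fmr1nb, a cancer-testis antigen, rose from 8.83 and 9.11 to 10.92 and 11.10 (2.04 ± 0.25), and Klhl13, an adaptor of a ubiquitin ligase, from 10.98 and 10.94 to 13.06 and 12.68 (1.91 ± 0.24). In the other direction Hmgb3, a chromatin protein, fell from 10.18 and 10.29 to 8.35 and 8.52 (-1.80 ± 0.23). Of these genes Rhox5 kept its call without each compared array, and Rnf128, Fmr1nb and Klhl13 did not.

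**Figure D2:**
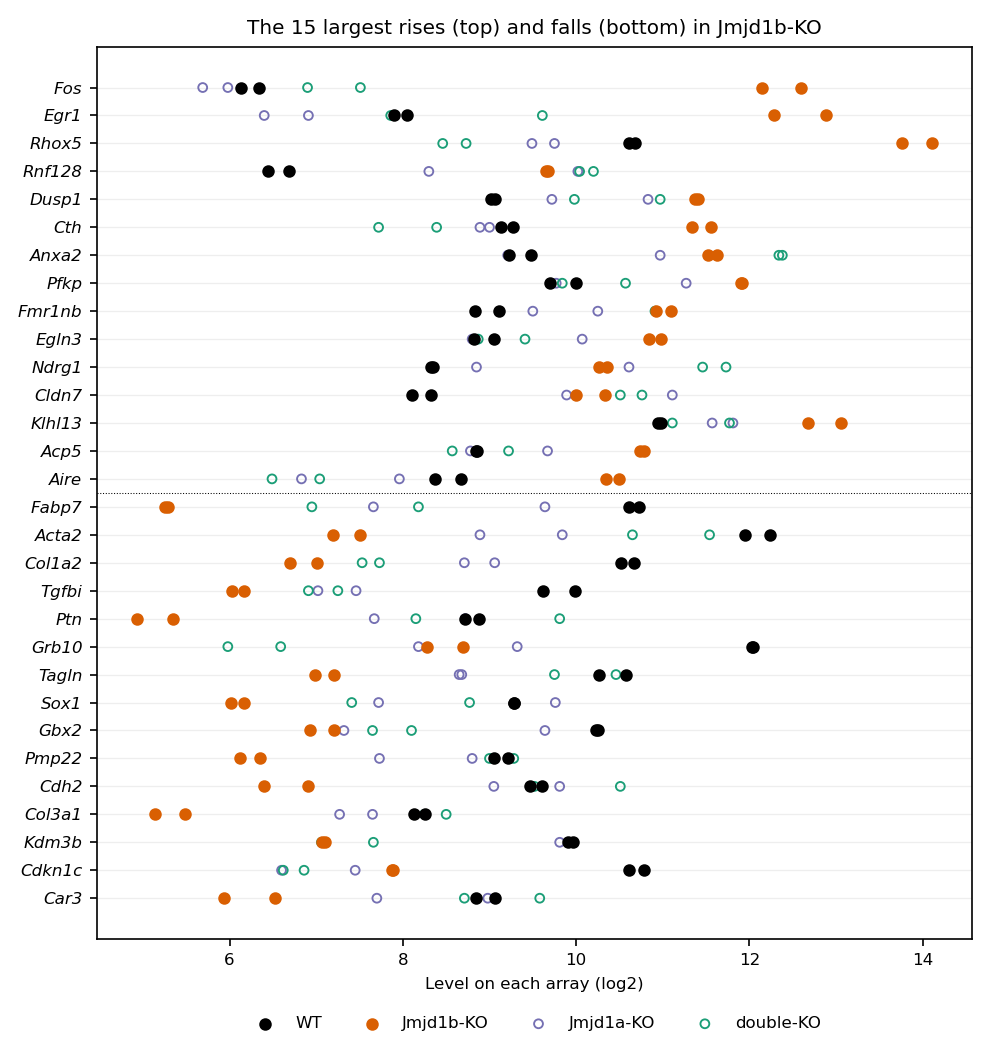
Level on each of the 8 arrays (horizontal axis, log2) of the 15 top rises and the 15 top falls in Jmjd1b-KO against WT, 1 gene per line. Filled points are the 2 WT arrays (black) and the 2 Jmjd1b-KO arrays (orange), which by the rule of selection do not overlap in any line. Open points are Jmjd1a-KO and double-KO, which for Rhox5, Cth and Aire lie on the WT side or beyond it.

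Genes of epithelia and of the trophoblast, the outer layer of the early embryo that forms the placenta, held more rises than falls. Of 28 measured epithelial and junction genes 13 rose (46.4%, against 13.6% of all genes) and 2 fell, with a median difference of 0.54. Of 12 measured trophoblast genes 8 rose (66.7%) and 1 fell, with a median of 0.62, and Cdx2, Elf5, Gata3 and Hand1, which define that lineage, were flat. Cldn7, a tight junction protein, went from 8.10 and 8.33 to 10.00 and 10.33 (1.95 ± 0.38). Krt8 and Krt18, paired keratins of simple epithelia counted in the trophoblast list, rose by 1.19 ± 0.29 and 0.97 ± 0.11. Tfap2c, a transcription factor of trophoblast and primordial germ cells, rose from 8.16 and 8.36 to 9.79 and 9.53 (1.40 ± 0.11, adjusted p = 0.00356). Pkp2, a desmosome protein, rose by 1.44 ± 0.29. The annexins went both ways, with Anxa2 higher by 2.22 ± 0.52 and Anxa1 (-2.35 ± 0.29) and Anxa3 (-1.54 ± 0.27) lower. A second Anxa2 probe set differed by 0.94. Without each compared array 0 to 3 epithelial and 1 to 4 trophoblast genes stayed higher, and Tfap2c was among the latter each time.

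Metabolic genes included further rises. Of 38 measured genes of hypoxia and glycolysis 11 rose (28.9%, against 13.6% of all genes) and 0 fell, with a median difference of 0.59 and 33 of the 38 above 0. Egln3, a prolyl hydroxylase that marks HIF for decay and is itself induced by low oxygen, rose from 8.82 and 9.05 to 10.84 and 10.98 (1.97 ± 0.41). Ndrg1, a stress-induced gene, went from 8.32 and 8.35 to 10.36 and 10.26 (1.97 ± 0.52), and Pfkp, the platelet form of phosphofructokinase, from 10.00 and 9.70 to 11.92 and 11.90 (2.06 ± 0.50). For Pfkp 2 further probe sets differed by 0.13 and 0.28, so its rise was not shared by all its probe sets. Pfkl, the liver form of the same enzyme, rose by 1.11 ± 0.28, Stc2, a secreted glycoprotein, by 1.18 ± 0.24 and Higd1a, a mitochondrial protein, rose by 1.00 ± 0.16. These genes varied widely between the Jmjd1a-KO arrays, at 10.07 and 8.80 for Egln3 and 10.61 and 8.85 for Ndrg1, and that spread enters the SE of both. With each compared array left out, 0 to 4 members of the list stayed higher, and the median stayed between 0.56 and 0.62. Ndrg1 also lost its call without either double-KO array.

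Cth, which makes cysteine from cystathionine, rose from 9.13 and 9.27 to 11.34 and 11.56 (2.25 ± 0.22, adjusted p = 0.00476). It belongs to a list of genes of the integrated stress response, a pathway that slows translation and raises ATF4 when amino acids run short, and of amino acid enzymes, transporters and tRNA synthetases. Of its 45 measured members 11 rose (24.4%, against 13.6% of all genes) and 0 fell, with a median difference of 0.29 and 39 above 0. Nupr1, a stress-induced chromatin protein, rose from 9.17 and 9.21 to 10.80 and 11.29 (1.86 ± 0.34). Psph, which completes serine synthesis, rose by 0.83 ± 0.13, Gpt2, a mitochondrial alanine transaminase, by 0.81 ± 0.20 and Cars, the cysteinyl-tRNA synthetase, by 0.61 ± 0.17. Cars lost its call with quantile normalization (adjusted p = 0.0651), centring (0.0574) and centring by chromosome (0.06), and without either Jmjd1a-KO array (0.0505). Without each compared array 0 or 1 member stayed higher, at medians of 0.21 to 0.37.

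Neural genes fell. Of 26 measured members 13 were lower (50.0%, against 10.2% of all genes) and 1 was higher, with a median difference of -0.69. Fabp7, a fatty acid binding protein of neural progenitors, had the largest fall of any gene, from 10.61 and 10.72 to 5.29 and 5.25 (-5.40 ± 0.68, adjusted p = 0.008), so that it ended below the lower quartile. Sox1, the transcription factor that marks the early neural plate, stood at 9.28 on both WT arrays and at 6.17 and 6.02 in Jmjd1b-KO (-3.19 ± 0.72). Ptn, a secreted growth factor, went from 8.88 and 8.72 to 5.35 and 4.93 (-3.65 ± 0.59). Cdh2, the adhesion protein N-cadherin, fell by 2.88 ± 0.40, and Dpysl2, which binds tubulin in growing axons, fell by 2.24 ± 0.21. Sox11 fell by 1.39 ± 0.29, and its other probe sets differed by -2.01 to -0.79. Pax6, Nes and Tubb3 had differences of -0.07, -0.21 and -0.89 that did not pass, and Mapt rose by 0.83. The Jmjd1a-KO arrays differed widely in some of these genes, with Sox1 at 7.72 and 9.76, and that spread enters the SE. The lower members numbered 1, 3, 1 and 0 when WT replicate 1, WT replicate 2, Jmjd1b-KO replicate 1 or Jmjd1b-KO replicate 2 was left out, while the list median stayed between -0.76 and -0.60.

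Contractile genes, which encode actin and its partners in muscle and motile cells, were lower as well. Of 20 measured members 9 fell (45.0%, against 10.2% of all genes) and 1 rose (5.0%, against 13.6%), with a median difference of -0.29. Acta2, the smooth muscle actin, went from 11.95 and 12.24 to 7.50 and 7.19 (-4.75 ± 0.40), and Tagln, an actin-binding protein, from 10.26 and 10.57 to 7.20 and 6.99 (-3.32 ± 0.24). Actc1, the cardiac actin, fell from 8.85 and 9.09 to 6.67 and 6.51 (-2.38 ± 0.23). Myl9, a regulatory myosin light chain, fell by 1.79 ± 0.20. Cald1, or caldesmon, fell by 1.64 ± 0.13 and Tpm4, a tropomyosin, fell by 1.29 ± 0.17. Cnn1, the smooth muscle calponin, rose by 0.43, a call that quantile normalization and centring each removed. Without each compared array 4 to 6 members stayed lower, and Acta2, Tagln, Cnn2 and Cald1 passed each time. The CArG box, the motif of serum response factor, was searched on both strands of the same 250 bases after the values were seen. It was in 3 of the 8 lower contractile genes with a promoter in the table (37.5%), 1 of 9 measured ones that were not lower (11.1%), 3 of 7 flat ones (42.9%), 2.43% of all lower genes, 1.41% of all measured genes and 1.62% of all genes with a promoter. The 3 lower genes are shown on the gene's strand, with the CArG box in capitals. Tagln is not shown.
Actc1, chr2:114052883-114052952, minus strand: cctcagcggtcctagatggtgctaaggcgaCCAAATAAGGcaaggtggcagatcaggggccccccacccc
Cnn2, chr10:79988514-79988583, plus strand: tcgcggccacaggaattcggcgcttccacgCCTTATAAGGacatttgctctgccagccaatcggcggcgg
Myl9, chr2:156775273-156775342, plus strand: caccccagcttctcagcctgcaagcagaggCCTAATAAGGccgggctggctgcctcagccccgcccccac

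Collagen and matrix genes showed the lowest median of the larger lists, at -0.91. Of 22 measured members 13 fell (59.1%, against 10.2% of all genes) and 2 rose (9.09%, against 13.6%). Col1a2, a chain of the fibrillar collagen I, went from 10.52 and 10.67 to 7.01 and 6.70 (-3.74 ± 0.16, adjusted p = 0.00146), and a second probe set differed by -3.20. Its partner chain Col1a1 fell by 2.01 ± 0.14, though a second probe set differed by only -0.16. Col3a1 went from 8.13 and 8.26 to 5.49 and 5.14 (-2.88 ± 0.18), though a second probe set differed by only -0.55, and Col5a2 fell by 2.61 ± 0.24. Serpinh1, the chaperone of collagen folding, fell by 1.66 ± 0.34, and Fstl1, a secreted glycoprotein, fell by 1.56 ± 0.20. The 2 rises were of enzymes that hydroxylate collagen, Plod2 (1.49 ± 0.39) and P4ha2 (0.91 ± 0.09). Without each compared array 4 to 7 members stayed lower, Col1a1, Col1a2, Col3a1 and Tnc in every case.

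Fibroblasts, the feeder cells on which embryonic stem cells are often grown, express many of the same genes. Of 22 fibroblast markers on the array 11 were measured. Of these 7 fell (63.6%, against 10.2% of all genes) and 1 rose (9.09%, against 13.6%), and with quantile normalization 6 fell. Their mean level was 8.28 and 8.34 in WT against 7.15 and 7.07 in Jmjd1b-KO, and 7.63 to 7.83 in the other groups. Of the 7 that fell, 6 are also members of the matrix list (Col1a1, Col1a2, Col3a1, Col5a2, Postn and Fn1), so this level is not a separate measure from the falls above. Among the 5 markers outside that list, the caveolin gene Cav1 fell by 0.23 ± 0.06 and Thy1, a surface glycoprotein, rose by 0.56 ± 0.07. Cav1 lost its call with quantile normalization, where its difference was -0.15 (adjusted p = 0.183 by limma). Pdgfrb, Twist1 and Cthrc1 had differences of -0.01, -0.12 and -0.25 that did not pass. The other 11 markers, among them the defining Dcn, Lum, Pdgfra, Prrx1, Twist2 and Fap, were flat at values of 6.09 to 7.04. Fewer fibroblasts in a culture and less of these RNAs per cell cannot be told apart in such samples, and the part of the markers in these falls was not tested.

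TGF-beta, a growth factor family that raises matrix and contractile genes in many cells, has a set of known responsive genes. Of these 21 were measured, 6 fell (28.6%, against 10.2% of all genes) and 1 rose (4.76%, against 13.6%), with a median difference of -0.13. Tgfbi, a secreted matrix protein named for its induction by TGF-beta, went from 9.62 and 9.99 to 6.17 and 6.03 (-3.71 ± 0.20, adjusted p = 0.00213), and its 3 other probe sets differed by -4.02 to -1.69. Nrep fell by 2.33 ± 0.16, Id2, an inhibitor of bHLH factors, fell by 2.14 ± 0.51 and Ankrd1 fell by 1.36 ± 0.18. Among the components themselves the ligand Tgfb2 fell by 0.57 ± 0.06 and the receptor Tgfbr1 fell by 0.55 ± 0.12, while Smad6, an inhibitor of BMP signalling, rose by 0.58 ± 0.08. Without each compared array 2 or 3 members stayed lower, Tgfbi and Nrep each time.

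**Figure D3:**
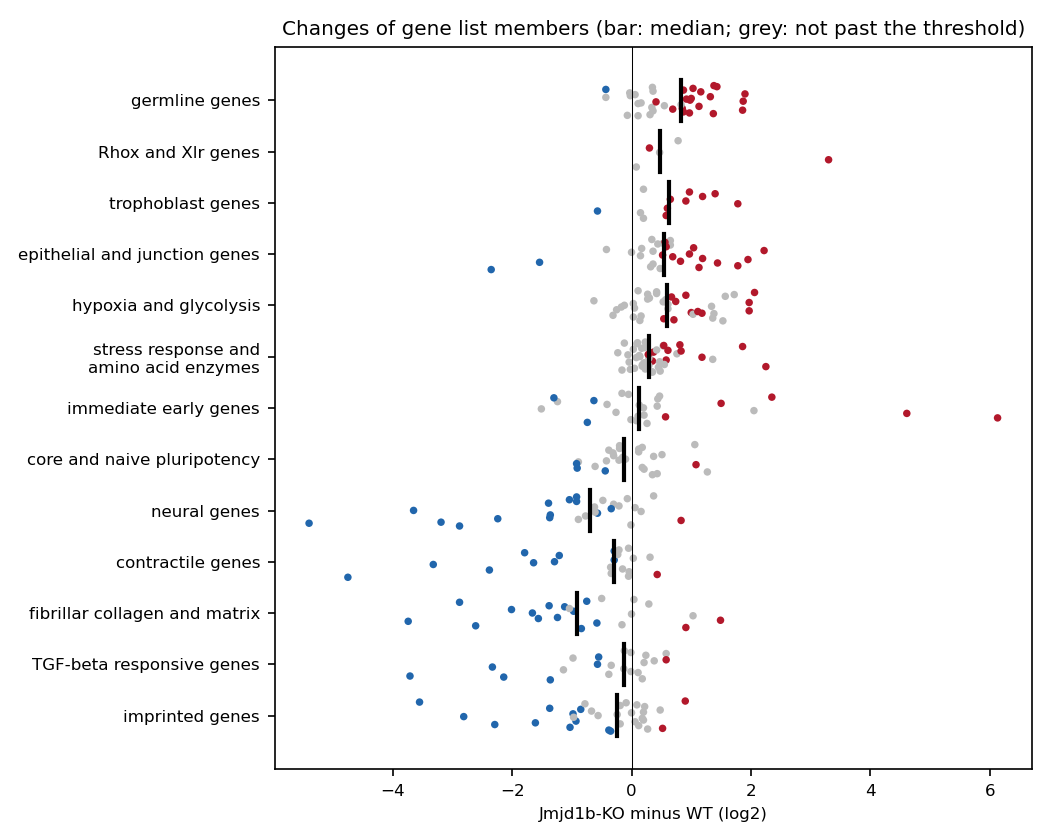
Difference between Jmjd1b-KO and WT (horizontal axis, log2) of each measured member of 13 gene lists, with red points for members that rose, blue for those that fell and grey for those that did not pass; the black bar is the list median. Germline, trophoblast and epithelial genes lie mostly to the right, and neural, contractile and collagen genes mostly to the left.

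Imprinted genes, which are expressed from the copy of 1 parent, were lower in 11 of 31 measured cases (35.5%, against 10.2% of all genes). They were higher in 2 (6.45%, against 13.6%), and the median difference was -0.24. Grb10, an adaptor that restrains insulin receptor signalling, stood at 12.03 and 12.04 in WT and at 8.28 and 8.70 in Jmjd1b-KO (-3.55 ± 0.40). Cdkn1c, an inhibitor of cyclin-dependent kinases, went from 10.61 and 10.78 to 7.87 and 7.89 (-2.81 ± 0.27). Plagl1, a zinc finger factor, fell by 2.29 ± 0.51. Mest (-1.61 ± 0.43), Nnat (-1.37 ± 0.30) and Ndn (-1.03 ± 0.20), all expressed from the paternal copy, fell as well. Peg3 rose by 0.90. The list holds genes expressed from either parent's copy, and the arrays do not tell the copies apart. The lower members numbered 2, 6, 2 and 0 when WT replicate 1, WT replicate 2, Jmjd1b-KO replicate 1 or Jmjd1b-KO replicate 2 was left out.

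The cell cycle list held 2 rises (5.26%, against 13.6% of all genes) and 3 falls (7.89%, against 10.2%) among 38 measured genes. Its median difference was 0.06, and the falls included both of the kinase inhibitors Cdkn1c and Cdkn1b (-0.51 ± 0.08) and the cyclin Ccnd2. Ccnd2 went from 9.15 and 9.25 to 6.89 and 6.95 (-2.28 ± 0.20) and kept its call without each compared array. The rises were of the kinase inhibitor gene Cdkn2a (0.86 ± 0.11) and of the mitotic kinase gene Aurkb (0.36 ± 0.09). Aurkb lies on chromosome 11 and lost its call with centring of whole arrays (adjusted p = 0.057) or of each chromosome (adjusted p = 0.104).

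Few pluripotency genes passed in the main fit. Of 26 measured genes of core and naive pluripotency 1 rose (3.85%, against 13.6% of all genes) and 3 fell (11.5%, against 10.2%), at a median difference of -0.13. Klf2, a Krüppel-like factor of the naive state, rose by 1.08 ± 0.11. Tbx3 fell by 0.92 ± 0.21, Tfcp2l1, which lies on chromosome 1, fell by 0.91 ± 0.13 and Sall4 fell by 0.44 ± 0.12. With quantile normalization 5 of them fell. The count depended on the arrays fitted: with only the 4 compared arrays 6 rose and 10 fell, against 1823 and 1400 of all 7181 genes. Fgf4 went from 9.80 and 10.01 to 11.11 and 11.24 but did not pass in the main fit (1.27 ± 0.82). It stood at 7.58 and 10.37 in double-KO, and that spread enters the SE. Gbx2, a homeobox gene that helps to maintain the naive state and also patterns the hindbrain, went from 10.25 and 10.23 to 7.20 and 6.93 (-3.18 ± 0.70). Of 16 measured genes of the formative and primed epiblast, the state after the naive one, 1 rose and 4 fell. Cd24a, a surface glycoprotein, had the largest change there, from 11.29 and 11.24 to 8.72 and 8.64 (-2.59 ± 0.34).

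Among enzymes and readers of H3K9 methylation, 2 of 16 measured genes rose (12.5%, against 13.6% of all genes). In the same list 3 fell (18.8%, against 10.2%), the deleted Kdm3b being 1 of them. Ehmt2, which encodes the methyltransferase G9a, rose from 9.53 and 9.55 to 10.62 and 10.61 (1.08 ± 0.19, adjusted p = 0.0165), and the demethylase gene Kdm1a rose by 0.41 ± 0.08. Cbx5, which encodes the reader HP1 alpha, fell by 1.18 ± 0.11, but its other probe sets differed by -0.06 to 0.00. Zfp644, a partner of G9a and GLP, fell by 0.63 ± 0.11. Without each of the 4 compared arrays 0 members of the list rose and 1 or 2 fell, and Ehmt2 had an adjusted p of 0.0757 to 0.0965. Of 16 measured DNA methylation genes 3 rose (18.8%, against 13.6% of all genes) and 0 fell (against 10.2%). The rises were of Dnmt3l, Gadd45a (1.59 ± 0.26) and Apobec3 (0.39 ± 0.10), and Apobec3 lost its call with centring (adjusted p = 0.0542). This count was 0 without each of the 4 compared arrays. Dnmt1 and Setdb1 were flat, and Ehmt1 was flat too.

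The remaining genes with the largest changes belong to no list that moved together. Aire, a transcriptional regulator best known from the thymus, rose by 1.90 ± 0.38, from 8.67 and 8.37 to 10.35 and 10.50. Acp5, an acid phosphatase of bone-resorbing cells, rose by 1.91 ± 0.32, from 8.86 and 8.84 to 10.74 and 10.78. Pmp22, a membrane protein of peripheral myelin, fell by 2.89 ± 0.33, from 9.05 and 9.21 to 6.35 and 6.12, and Car3, a carbonic anhydrase, fell by 2.72 ± 0.49. Of the 30 top rises and falls, Fos, Rhox5, Acta2, Col1a2, Tgfbi, Tagln, Col3a1 and Kdm3b kept their call without each of the 4 compared arrays, and the other 22 lost it at least once. Calls were kept by 9 of them when WT replicate 1 was left out, 16 for WT replicate 2, 10 for Jmjd1b-KO replicate 1 and 8 for Jmjd1b-KO replicate 2. All 30 kept it when only the 4 compared arrays were fitted.

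Besides single genes, whole chromosomes differed between the groups. Of 428 measured genes on chromosome 1, 122 fell (28.5%) and 13 rose (3.04%), with a median difference of -0.18 and 75.2% of the genes below 0. On chromosome 19, 59 of 253 fell (23.3%) and 11 rose, with a median of -0.13. Chromosome 11 went the other way, with 154 of 638 genes higher (24.1%), 34 lower (5.33%), a median of 0.16 and 70.1% of the genes above 0. On the other autosomes 764 of 5579 genes rose (13.7%), 473 fell (8.48%) and the median was 0.03. These 3 chromosomes were picked after the data were seen, and no test of the pattern was run.

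The shift had the same sign along the whole of each chromosome and was alike in both replicates. When chromosome 1 was divided into 8 stretches of 53 or 54 measured genes, all 8 medians were negative, between -0.25 and -0.10. The 8 stretches of chromosome 11 had medians of 0.10 to 0.20, and the 5 of chromosome 19 of -0.18 to -0.06. Relative to the mean of the 8 arrays, the median over genes of chromosome 1 was 0.10 on both WT arrays and -0.08 and -0.07 in Jmjd1b-KO, with -0.06 to 0.02 on the other 4. For chromosome 19 it was 0.12 and 0.13 in WT and 0.00 and -0.01 in Jmjd1b-KO, and for chromosome 11 it was -0.08 and -0.07 in WT and 0.05 in both Jmjd1b-KO arrays. The WT arrays were thus the ones farthest from the mean on all 3 chromosomes. In double-KO against Jmjd1a-KO the medians were 0.03, 0.01 and 0.01 for chromosomes 1, 19 and 11. Copy number was not measured here, and the lines behind the groups cannot be told apart from the genotype.

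**Figure D4:**
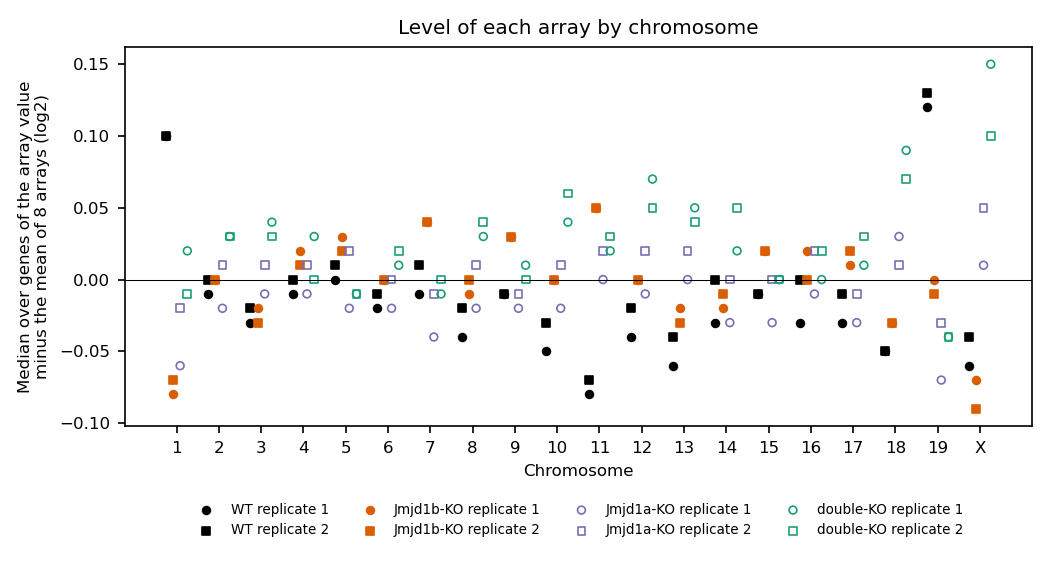
Median over the measured genes of each chromosome of the value on an array minus the mean of the 8 arrays (vertical axis, log2), 1 point per array, with WT in black, Jmjd1b-KO in orange and the other groups as open symbols. On chromosomes 1 and 19 the WT arrays lie at 0.10 to 0.13, above all others, and on chromosome 11 they lie at -0.08 and -0.07, below all others.

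The chromosome shifts touched the counts more than the leading genes. Chromosome 1 held 16.7% of all lower calls and chromosome 11 held 15.8% of all higher ones. After each array was centred within each chromosome, 51 genes rose and 47 fell on chromosome 1, 26 and 29 on chromosome 19, and 89 and 56 on chromosome 11. All 30 genes with the largest changes kept their call, and in the lists described above 13 neural, 9 contractile, 14 collagen and matrix and 11 imprinted genes fell, and 13 epithelial, 8 trophoblast and 11 hypoxia genes rose. Over all lists, 53 counts of rises or falls stayed within 1.5 times and 9 did not, among them the cell cycle rises, which went from 2 to 1.

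Loss of Jmjd1b was also present in double-KO against Jmjd1a-KO, a comparison that shares no array with the one above but takes its error from the same fit. There 2128 genes passed (29.6%), with 1284 higher (17.9%) and 844 lower (11.8%), and 3329 of 11502 probe sets passed (28.9%), with 1956 higher (17%) and 1373 lower (11.9%). The share of higher calls among those probe sets went from 58.8% to 49.4% with quantile normalization and to 46.0% with centring. Of the 1703 genes called in Jmjd1b-KO against WT, 880 (51.7%) had the same sign in this second comparison. The number called in both with the same sign was 351, which is 20.6% of the first list and 16.5% of the second, and 320 were called with opposite signs, 18.8% and 15%. Across 7181 genes, which are not independent and come from 1 fit, the 2 differences had a Pearson r of 0.03 and a Spearman rho of 0.00. A direct test of whether the difference depends on Jmjd1a, the interaction, passed for 1839 genes (25.6%), 981 positive (13.7%) and 858 negative (11.9%), among them 885 of the 1703.

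Genes that passed in both comparisons with the same sign, and not in the interaction, included Grb10, Krt19, Tfap2c and Stk31 besides Kdm3b itself. Tfap2c rose by 1.40 on the intact background and by 1.41 on the deficient one, where it went from 10.80 and 10.68 in Jmjd1a-KO to 12.14 and 12.17 in double-KO. Krt19, a keratin of simple epithelia, rose by 1.78 and 1.84, and Abcd4, a lysosomal transporter of vitamin B12, by 1.54 and 1.45. Grb10 fell in both (-3.55 and -2.47), and reached 5.98 and 6.59 in double-KO. Neurod1, a bHLH factor of neurons, did too (-1.63 and -2.91). The germline list was again mostly higher in the second comparison, with 22 of 35 members up and 1 down, and 11 members were positive and 7 negative in the interaction. Dazl, an RNA-binding protein of germ cells, rose by 1.32 and 2.78, with an interaction of 1.45 (adjusted p = 0.00244). Tex19.1, a germline protein on chromosome 11, rose by 1.16 and 3.25, with an interaction of 2.09 (adjusted p = 0.00707).

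Other groups went apart between the backgrounds. Acta2 fell by 4.75 with Jmjd1b loss alone and rose by 1.73 in double-KO against Jmjd1a-KO, from 9.84 and 8.89 to 11.54 and 10.65 (interaction 6.49 ± 0.57, adjusted p = 0.00318). Tagln did likewise, with a rise of 1.44 in the second comparison, and of the 20 contractile genes 9 rose and 1 fell there. Anxa1, an annexin of epithelia and white blood cells, fell by 2.35 and rose by 2.37. The stress response and amino acid list turned the other way: 11 of 45 rose with Jmjd1b loss alone, 33 of 45 fell in double-KO against Jmjd1a-KO, and the interaction was negative in 32. Nupr1 rose by 1.86 in the first comparison and fell by 2.24 in the second, where it went from 7.91 and 8.36 to 5.42 and 6.36. Rhox5 rose by 3.30 and fell by 1.03 (interaction -4.33 ± 0.22, adjusted p = 0.00149). Fos rose in both, by 6.13 and 1.37, with an interaction of -4.76 ± 0.35.

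**Figure D5:**
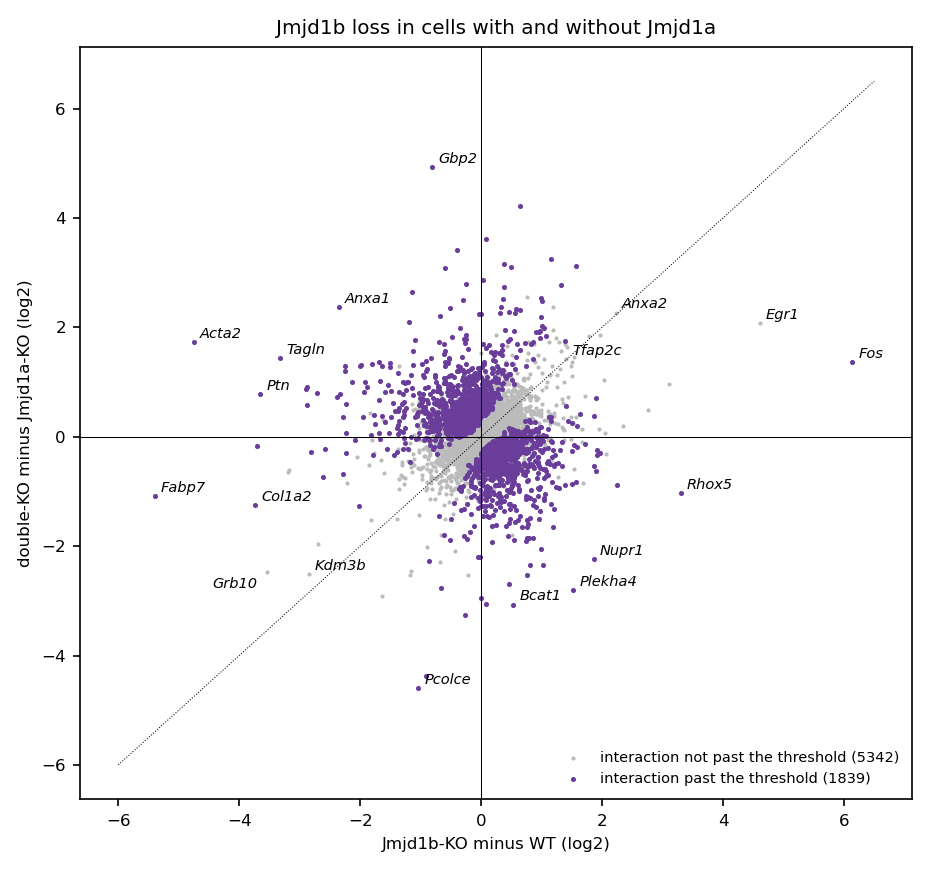
Difference of 7181 genes between Jmjd1b-KO and WT (horizontal axis, log2) and between double-KO and Jmjd1a-KO (vertical axis, log2), with purple points for the 1839 genes whose interaction passed and grey for the rest; the dotted line marks equal differences. Kdm3b, Tfap2c and Anxa2 lie near the line, while Acta2, Tagln and Anxa1 lie in the upper left and Rhox5, Nupr1 and Plekha4 in the lower right.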

How the data were processed

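RNA of 8 mouse embryonic stem cell samples was measured on Affymetrix arrays, labelled from 200 ng of RNA per the labels' protocols. Values in the deposited table are on a log2 scale, as judged from their range; R 2.7.2 is named in the submitters' processing notes, and the background correction and normalization are not stated. Of 45101 probe sets 33599 (74.5%) spanned less than 0.01 and were left out as flat; the nearest spans on each side were 0.0097 and 0.0101. Gene symbols came from the platform's gene table: of the 11502 probe sets tested, 10405 had 1 symbol, 364 several and 733 none, and a gene was represented by its single-symbol probe set with the highest mean (7181 genes, 7168 of them matched in RefSeq's gene table of GRCm38.p6).

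All 11502 probe sets entered a linear model of 4 group means in limma 3.58.1, run under R 4.3.3 (functions lmFit and eBayes; residual degrees of freedom 4, prior degrees of freedom 1.89), with two-sided p-values adjusted by the Benjamini-Hochberg method over all of them and a threshold of 0.05. The code was tested on simulated data. Named are the 15 top rises and 15 top falls among genes that passed and whose compared arrays kept apart, 6 each way for the interaction, Kdm3a and Kdm3b, and up to 6 members past the threshold in each of 31 gene lists, largest change first; X-linked genes, genes called in both comparisons, promoters shown and members that did not pass were chosen after their values were seen. The comparison, the lists and the rule were chosen with earlier results of these data known. The replicate numbers were not used as pairs in the main fit. Deviations of like-numbered arrays correlated between -0.04 and 0.24, and only the pair WT and Jmjd1a-KO exceeded 0.1. Such a correlation over all probe sets cannot show whether like-numbered arrays share a line or batch. Replicate 2 of Jmjd1a-KO and of double-KO were both low in Eif2s3y (3.19 and 3.73). The 18S rRNA control was lower on replicate 2 in each group, at 11.33 and 10.34 in WT and 11.49 and 10.52 in Jmjd1b-KO. Alternatives covered the span filter, scaling, a filter on low values, a robust trended eBayes, the groups fitted, array weights, a replicate block, single arrays left out and stricter thresholds; leaving out 2 arrays by their Y-linked values and centring by chromosome were chosen after seeing the data. Promoters came from RefSeq. Plots used Python 3.11.15 and matplotlib 3.10.9.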

Additional observations from a re-analysis of the deposited data

Results flagged for a closer look

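The difference between groups with and without Jmjd1b was itself compared between cells with and without Jmjd1a. This interaction passed for 1839 of 7181 genes by limma, and in it the lines cannot be told apart from the genotype. The 6 largest positive interactions, where double-KO minus Jmjd1a-KO exceeded Jmjd1b-KO minus WT, were those of Acta2 (6.49), Gbp2 (5.73), Tagln (4.76), Anxa1 (4.72), Ptn (4.44) and Fabp7 (4.32). Gbp2, an interferon-induced GTPase, had a difference of -0.81 that did not pass with Jmjd1b loss alone (adjusted p = 0.0648) and rose by 4.93 in double-KO against Jmjd1a-KO. The 6 largest negative ones were those of Fos (-4.76), Rhox5 (-4.33), Plekha4 (-4.32), Nupr1 (-4.10), Bcat1 (-3.60) and Pcolce (-3.56). Plekha4 rose by 1.53 and fell by 2.80, from 8.74 and 8.28 in Jmjd1a-KO to 5.43 and 5.99 in double-KO. Bcat1, a transaminase of branched-chain amino acids, and Pcolce, which aids collagen processing, did not pass with Jmjd1b loss alone, at 0.53 and -1.04 (adjusted p = 0.326 and 0.053), and fell in the second comparison (-3.07 and -4.60). Groups of 2 arrays are too small for a test of single outlying samples.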

How the results depend on the processing

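The count of 2744 probe sets in Jmjd1b-KO against WT was 819 with no span filter, 5071 with only the groups compared, 5526 with array weights, 5071 without the 2 arrays with the lowest Y-linked values (chosen after seeing the data), 421 at a log2 change of at least 1 and 471 at an adjusted p under 0.01; leaving out single arrays gave 104 to 3805. The count of 3329 in double-KO against Jmjd1a-KO was 1291 with no span filter, 556 with only the groups compared, 1623 with array weights, 578 at a log2 change of at least 1 and 1137 at an adjusted p under 0.01, and 1779 to 3448 without single arrays. The interaction count of 2868 was 1247 with no span filter, 5292 without the 2 arrays with the lowest Y-linked values, 999 at a log2 change of at least 1 and 763 at an adjusted p under 0.01, and 915 to 3976 without single arrays; it has no version with fewer groups. The cause of these moves was not tested. For Jmjd1b-KO against WT, leaving out the 2 arrays with the lowest Y-linked values is the same fit as only the groups compared. With the replicate block the counts were 2116, 2868 and 2404, each within 1.5 times its value without it. All other settings, namely quantile normalization, centring, the filter on low values, the wider span and the robust trended fit, also stayed within 1.5 times. Kdm3a, whose 0.03 did not pass, was -0.04 with quantile normalization and -0.02 to 0.08 without single arrays (-0.02 without WT replicate 2). Of 43 named results 25 lost their call with no span filter, 3 with the replicate block and 16 to 24 without one of the compared arrays. What limits the size of a change is a level near or below the lower quartile, since signal over background was not examined.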

Other observations

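Of 29 Hox genes, which pattern the body axis, 25 were flat and 4 were measured, and these 4 fell in Jmjd1b-KO: Hoxb2 from 8.01 on both WT arrays to 6.67 and 6.65 (-1.35 ± 0.23), Hoxb1 (-0.83 ± 0.21), Hoxa5 (-0.57 ± 0.14) and Hoxa2 (-0.37 ± 0.06). Hoxb1, Hoxa5 and Hoxa2 ended near or below the lower quartile of the arrays, and the count was 0 without each of the compared arrays. Of all genes 10.2% fell. A gene had to vary over the arrays to be measured, and the mean level of these 4 was highest on both WT arrays. The count may thus owe part of its direction to the span filter, and it does not describe the 25 flat genes. Retinoic acid is a vitamin A derivative that switches on Hox genes. Of 9 measured genes that respond to it 3 fell (33.3%, against 10.2% of all genes) and 0 rose. They were Hoxb1 and the partners of Hox proteins Meis1 (-1.42 ± 0.28) and Meis2 (-0.55 ± 0.08). Of these, 2 lie on chromosomes 1, 11 or 19, and the count stayed at 3 after centring by chromosome. The calls of this list were lost when any compared array was left out, while the list median stayed between -0.61 and -0.49. With quantile normalization 3 fell and 1 rose. Of 15 measured genes of endoderm and basement membrane 5 fell (33.3%, against 10.2% of all genes) and 1 rose (6.67%, against 13.6%). The collagen IV chains Col4a1 (-1.16 ± 0.23) and Col4a2 (-0.92 ± 0.19) fell, and a second Col4a1 probe set differed by only -0.33. The laminin chains Lama1 (-0.92 ± 0.17) and Lamc1 (-0.25 ± 0.07) and Dab2 (-0.88 ± 0.21) fell too, and Amn rose by 0.50. Lamc1 lies on chromosome 1, and after centring by chromosome its difference was -0.06 (adjusted p = 0.498). Without each of the compared arrays 0 members of this list rose and 0 fell. Of 6 measured mesoderm and cardiac genes the T-box factor Eomes (0.65 ± 0.14) and the growth factor gene Bmp4 (1.52 ± 0.29) rose (33.3%, against 13.6% of all genes). Actc1 fell (16.7%, against 10.2%).

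Of 14 measured Notch and Wnt pathway genes 4 fell (28.6%, against 10.2% of all genes) and 1 rose (7.14%, against 13.6%). The Wnt receptors Fzd2 (-1.36 ± 0.30) and Fzd5 (-0.97 ± 0.12), the receptor Notch2 (-0.70 ± 0.17) and the Wnt effector Lef1 (-0.53 ± 0.12) fell, while Notch4 rose by 1.51 ± 0.15, from 6.70 and 6.65 to 8.11 and 8.26. Of 18 measured Polycomb genes 5 rose (27.8%, against 13.6% of all genes) and 2 fell (11.1%, against 10.2%), with 3 and 2 by quantile normalization. The largest change was in Phc2, a subunit of PRC1, which went from 9.23 and 9.26 to 7.46 and 7.10 (-1.96 ± 0.38). Suz12 of PRC2 rose by 0.63 ± 0.14, a call lost after centring by chromosome (adjusted p = 0.054). The Polycomb count was 0 in both directions without each of the compared arrays. Of 20 measured cholesterol genes 5 rose and 3 fell, Lss (0.85 ± 0.22) and Hmgcs1 (-0.38 ± 0.10) among them (3 and 2 after centring by chromosome, and 0 and 0 without each of the compared arrays), whereas 14 fell and 1 rose in double-KO against Jmjd1a-KO, and the interaction was negative in 14. Of 29 measured genes of glutathione and oxidative stress 4 rose and 4 fell (13.8% each, against 13.6% and 10.2% of all genes). The rises included Hmox1, the heme oxygenase (1.04 ± 0.12), and Txnip, an inhibitor of thioredoxin (1.11 ± 0.24), and the falls were those of the glutathione transferases Gsto1 (-0.59 ± 0.15), Gstm5 (-0.47 ± 0.09) and Gstp1 (-0.26 ± 0.05) and of the peroxiredoxin Prdx2 (-0.43 ± 0.06). After centring by chromosome 3 rose and 2 fell. Of 21 measured interferon genes Oas1a (1.00 ± 0.13) and Ifi35 (1.24 ± 0.34) rose (9.52%, against 13.6% of all genes). Gbp3 (-0.52 ± 0.14) fell (4.76%, against 10.2%). Ifi35 lost its call with quantile normalization (adjusted p = 0.0527) and centring by chromosome (0.063), as did Gbp3 (0.0746 and 0.0511). The p53 list had 1 rise among 18, Pltp (0.58 ± 0.11), and the 2-cell-like list 1 among 5 (3 with quantile normalization), Usp17la, which went from 5.66 and 5.75 to 6.32 and 6.36 and stood at 10.18 and 10.19 in double-KO.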
